A study of Caenorhabditis elegans with 10 samples.

Results

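The genes for the Wnt ligands of C. elegans and for their receptors were examined in whole early L1 larvae that had lost the chromatin remodeling subunit PBRM-1 from mesodermal cells. They were chosen by gene name as 5 ligand genes (mom-2, lin-44, egl-20, cwn-1 and cwn-2), 4 Frizzled receptor genes (mig-1, lin-17, cfz-2 and mom-5) and the Ror receptor gene cam-1. All 10 were among the 46756 genes of the count table, and all 10 passed the filter on low counts. The study compared hermaphrodite larvae of pbrm-1(TS-KO) with pbrm-1(control), with 5 polyA-selected libraries each, numbered 1, 4, 5, 6 and 7. Both strains were reared and collected in parallel, with the replicates on different days. The sample labels give only the replicate number, so each number was taken as 1 culture day shared by both strains. Larvae hatched overnight without food. Both strains carry the pbrm-1(rd31[pbrm-1::GFP(flox)]) allele, which is GFP-tagged and loxP-flanked, and an unc-119 mutation rescued with the C. briggsae gene. pbrm-1(TS-KO) also carries the transgene hnd-1p::GFP-nanobody::ZIF-1::Cre (rdIs74), which deletes the last exons of pbrm-1 and degrades the tagged protein where the hnd-1 promoter is active. That promoter acts in embryonic mesoderm, which includes body wall muscle and the somatic gonadal precursors (SGPs). pbrm-1(control) carries hnd-1p::ZIF-1 (rdIs79) in its place. PBRM-1 remains in the other tissues of pbrm-1(TS-KO), although a few larvae of that strain had lost the floxed exons in every cell. RNA came from whole animals, so fewer cells of a type and less RNA per cell cannot be told apart.

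Wnts are secreted, lipid-modified glycoproteins that are released in local sources and act on nearby cells through receptors of the Frizzled, Ror and Ryk families. In C. elegans they orient asymmetric divisions, guide migrating neuroblasts and set the direction of neurites along the anterior-posterior axis. One branch stabilizes a beta-catenin that acts with the TCF factor POP-1 in the nucleus. Other branches act through Dishevelled proteins or planar polarity proteins. Several Wnts are made in the posterior of the larva, and secreted antagonists made in the anterior limit their reach. SGPs, a target of the knockout, divide asymmetrically under control of this pathway.

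Libraries held between 35922561 and 46553938 counts in pbrm-1(TS-KO) and between 36354418 and 45126931 in pbrm-1(control). The members had between 256 and 6636 counts in a library. Levels are given as CPM, in which each count is scaled to a fixed library total after TMM normalization, a step that aligns the bulk of genes between libraries. In edgeR's quasi-likelihood test, 1299 of 16817 genes tested, or 7.72%, had an adjusted p of at most 0.05 between the strains. pbrm-1 itself had between 233 and 265 CPM in pbrm-1(TS-KO) and between 224 and 286 CPM in pbrm-1(control) (log2 fold change -0.09, adjusted p = 0.433 in edgeR's test). Its gene-level count includes exons that the knockout keeps, so it is a weak check of the labels. At the exon level, the paper found most of the deleted exons significantly lower in pbrm-1(TS-KO). Control replicate 5 was the highest of the 10 libraries for 14.9% of all genes tested. Of the marker lists for tissues of the whole animal, none of the body wall muscle (5 tested), pharyngeal muscle (4), neuron (5), hypodermis and seam (5), somatic gonad and head mesodermal cell (3) or adult and embryo carry-over (3) genes passed the test in edgeR. The muscle lists are short. With DESeq2 the paper called other muscle function genes, nearly all of them lower in pbrm-1(TS-KO). The intestinal list had 2 of 5 genes higher and the germ line list 1 of 5. The summed intestinal level was 7331 to 7940 CPM in pbrm-1(TS-KO) against 5714 to 6730 CPM in pbrm-1(control). Of the marker genes, hnd-1 averaged 0.244 CPM and msp-19 0.0023 CPM, near the limit of detection.

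None of the 10 ligand and receptor genes differed between the strains in edgeR's quasi-likelihood test, against 7.72% of all genes tested. None had an unadjusted p under 0.05 in that fit, which ignores the pairing by day, against 24.1% of all genes. DESeq2 and limma-voom also called 0 of the 10. With the replicate number as a block the number called was 0 of 10 as well, against 10.9% of all genes. The lowest adjusted p of the members in that edgeR fit were 0.0905 for cwn-1, 0.142 for cwn-2 and 0.149 for lin-17. Unadjusted p were not counted in the blocked fit. In all 10 the ranges of the strains overlapped, while 9.26% of all genes tested had ranges that did not. The log2 fold changes of pbrm-1(TS-KO) over pbrm-1(control) ran from -0.21 for cwn-1 to 0.09 for egl-20, with a median of -0.11, where the median of all genes tested was 0.00045. Among the members 7 had values below 0 and 3 above. Without control replicate 5, a setting chosen after the data were seen, 5 members were below 0 and 5 above. The median was then -0.0021 against 0.0071 over all genes. Without pbrm-1(TS-KO) replicate 5 or without control replicate 1, 9 were below 0. Without both libraries of replicate 5, 6 were below 0, and in the other fits that left out libraries 7 or 8 were. In limma-voom with sample quality weights 3 were below 0 and 7 above, with a median of 0.0086. The 95% interval of the difference lay within 1.5-fold in either direction for 9 of the 10 genes, against 66.8% of all genes tested. mom-2 was the exception at 1.5-fold, and all 10 intervals lay within 2-fold, against 85.9% of all genes. These intervals concern RNA of the whole animal, in which a change limited to mesodermal cells would be diluted.

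Among the ligands, cwn-1 (WBGene00000857; chromosome II, 130983 to 133598, WBcel235, minus strand) had the lowest unadjusted p of the 10 genes. It encodes a Wnt made in the posterior body, including body wall muscle, and it acts with other Wnts in cell migration. cwn-1 had 21.4, 16.0, 20.1, 18.8 and 18.2 CPM in pbrm-1(TS-KO) replicates 1, 4, 5, 6 and 7, against 24.7, 18.4, 27.5, 19.8 and 19.2 CPM in pbrm-1(control). In each of the 5 same-numbered pairs the pbrm-1(TS-KO) library was lower, yet libraries of other days overlapped between the strains. cwn-1 thus had a log2 fold change of -0.21 (SE 0.12, 95% interval -0.48 to 0.050, adjusted p = 0.309 in edgeR's test). On the log2 scale the difference of a pair ran from -0.45 for replicate 5 to -0.079 for replicate 6. The blocked fit gave cwn-1 an adjusted p of 0.0905. With control replicate 5 left out, cwn-1 was at -0.12 on the log2 scale (adjusted p = 0.584 in edgeR's test), and limma-voom gave -0.079. With control replicate 4 left out, cwn-1 was at -0.27 (adjusted p = 0.219 in edgeR's test).

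cwn-2 (WBGene00000858; chromosome IV, 10067816 to 10070251, plus strand) encodes a Wnt that guides neurites and acts with CAM-1 at the neuromuscular junction. cwn-2 had 27.2, 18.2, 24.3, 22.2 and 16.9 CPM in pbrm-1(TS-KO) replicates 1, 4, 5, 6 and 7, against 28.5, 21.4, 29.3, 21.5 and 20.9 CPM in pbrm-1(control). The spread between days within a strain was wider than the gap between the strains. The blocked fit, which compares libraries of the same number, gave cwn-2 an adjusted p of 0.142. For cwn-2 the log2 fold change was -0.16 (SE 0.15, 95% interval -0.48 to 0.16, adjusted p = 0.539 in edgeR's test), and 4 of 5 pairs were lower in pbrm-1(TS-KO). It was -0.084 without control replicate 5, -0.081 without pbrm-1(TS-KO) replicate 7 and -0.25 without pbrm-1(TS-KO) replicate 1. Of the exon bases of cwn-2, 50 of 1427 also belong to W01B6.3 on the opposite strand, which averaged 1.48 CPM. The study does not state whether counting used strand, so reads in that stretch cannot be assigned with certainty.

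egl-20 (WBGene00001188; chromosome IV, 9812357 to 9815532, minus strand) encodes the posterior Wnt that directs the left Q neuroblast backward through the Hox gene mab-5. egl-20 had 48.1, 39.9, 43.7, 44.2 and 43.0 CPM in pbrm-1(TS-KO) replicates 1, 4, 5, 6 and 7, against 47.2, 39.7, 37.6, 39.3 and 41.6 CPM in pbrm-1(control). It was the only member higher in pbrm-1(TS-KO) in 5 of 5 pairs, where log2 differences ran from 0.0068 to 0.22. The log2 fold change was 0.09 (SE 0.070, 95% interval -0.061 to 0.25, adjusted p = 0.457 in edgeR's test), and the ranges of the strains overlapped. The blocked fit gave egl-20 an adjusted p of 0.256. Without control replicate 5 the log2 fold change was 0.063, and without control replicate 1 it was 0.15 (adjusted p = 0.163 in edgeR's test). Together with cwn-1 and lin-17, both lower in 5 of 5 pairs, egl-20 makes 3 of 10 members with 1 direction in every pair, against 26.8% of all genes tested.

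mom-2 (WBGene00003395; chromosome V, 8355988 to 8358185, plus strand) encodes the Wnt that polarizes the endomesodermal blastomere of the early embryo. mom-2 had 7.06, 8.24, 8.34, 10.8 and 6.77 CPM in pbrm-1(TS-KO) replicates 1, 4, 5, 6 and 7, against 6.64, 7.22, 13.9, 11.7 and 5.80 CPM in pbrm-1(control). Replicates 5 and 6 were the highest of both strains, and the control libraries held both the highest and the lowest value. For mom-2 the log2 fold change was -0.13 (SE 0.24, 95% interval -0.66 to 0.39, adjusted p = 0.769 in edgeR's test). Without control replicate 5 it was 0.077, with the opposite sign and an adjusted p of 0.871. Without control replicate 7 it was -0.25. lin-44 (WBGene00003029; chromosome I, 4126056 to 4129310, plus strand) encodes the Wnt of the tail epidermis that orients the T cell division. lin-44 averaged 9.71 ± 0.702 CPM in pbrm-1(TS-KO) and 9.68 ± 1.04 CPM in pbrm-1(control) (SD, n = 5 each). Its log2 fold change was 0.0044 (SE 0.089, 95% interval -0.19 to 0.20, adjusted p = 0.984 in edgeR's test).

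**Figure D1:**
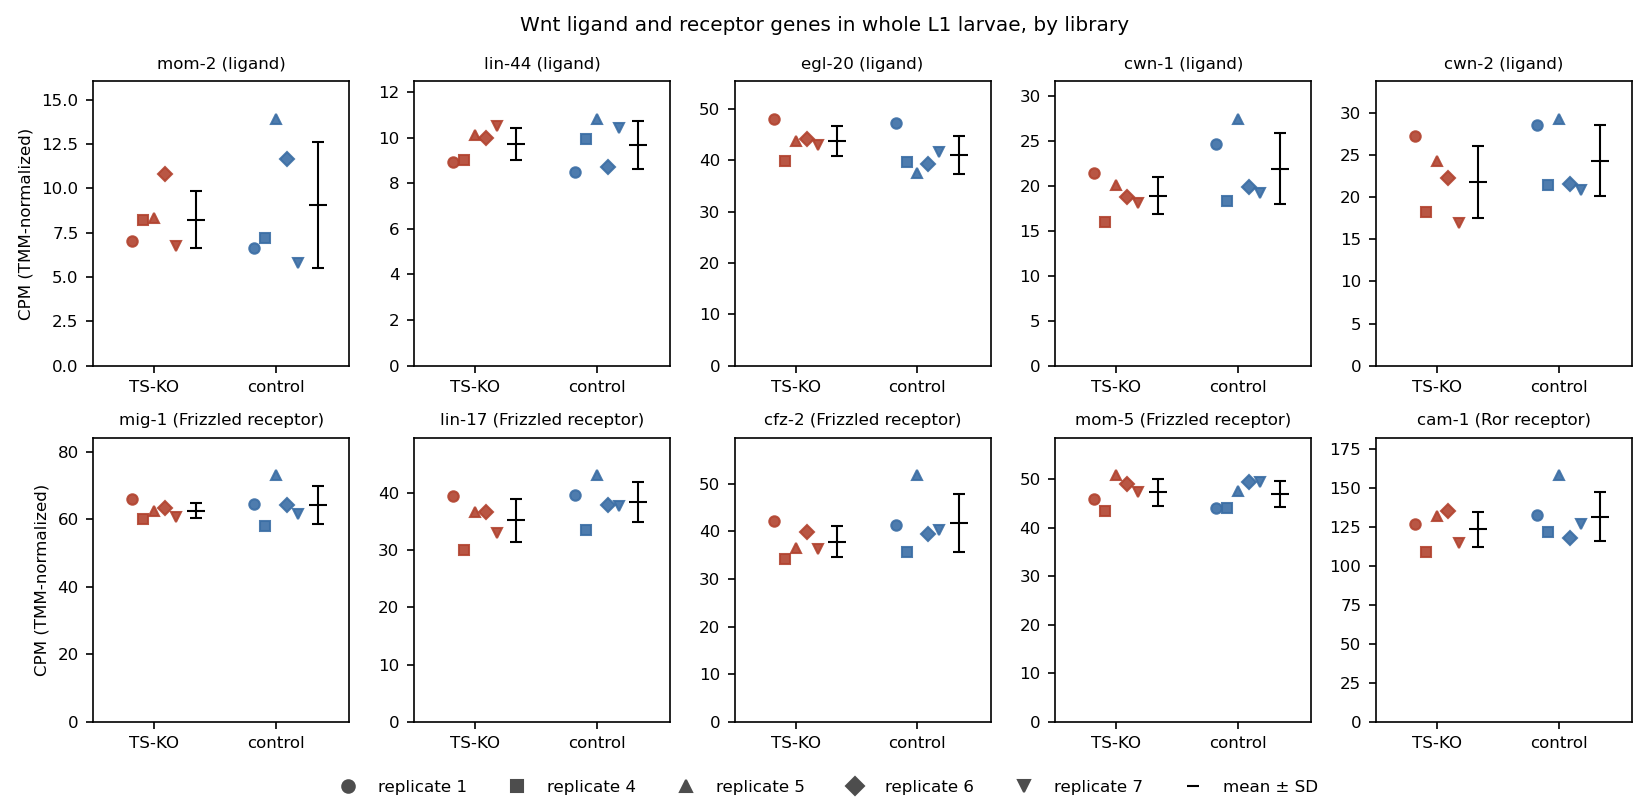
CPM after TMM normalization (y axis, from 0) of the 10 Wnt ligand and receptor genes in pbrm-1(TS-KO) (left, red) and pbrm-1(control) (right, blue) libraries, with the marker shape giving the replicate number and the bar the mean ± SD of 5 libraries. In every panel the strains overlap, and control replicate 5 is the highest of the 10 libraries for 8 of the genes.

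Among the receptors, lin-17 (WBGene00003006; chromosome I, 2706883 to 2717549, plus strand) encodes a Frizzled needed for asymmetric divisions, those of the SGPs included. lin-17 had 39.5, 30.0, 36.7, 36.6 and 33.1 CPM in pbrm-1(TS-KO) replicates 1, 4, 5, 6 and 7, against 39.7, 33.5, 43.2, 37.9 and 37.7 CPM in pbrm-1(control). Each pbrm-1(TS-KO) library was below its pair, though in replicate 1 by only -0.0061 on the log2 scale. lin-17 had a log2 fold change of -0.13 (SE 0.084, 95% interval -0.31 to 0.059, adjusted p = 0.395 in edgeR's test). It was -0.079 without control replicate 5 and -0.17 without control replicate 4. The blocked fit gave lin-17 an adjusted p of 0.149. cfz-2 (WBGene00000478; chromosome V, 3441504 to 3444877, minus strand) encodes a Frizzled that acts in the migration of anterior neurons. cfz-2 had 42.3, 34.2, 36.4, 39.9 and 36.3 CPM in pbrm-1(TS-KO) replicates 1, 4, 5, 6 and 7, against 41.2, 35.7, 51.9, 39.3 and 40.3 CPM in pbrm-1(control). Control replicate 5 lay above the other 9 libraries. The log2 fold change of cfz-2 was -0.14 (SE 0.096, 95% interval -0.35 to 0.070, adjusted p = 0.404 in edgeR's test). It was -0.048 without control replicate 5 and -0.19 without control replicate 4.

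mig-1 (WBGene00003238; chromosome I, 948569 to 957456, minus strand) encodes a Frizzled of migrating Q neuroblasts and HSN neurons. mig-1 averaged 62.6 ± 2.34 CPM in pbrm-1(TS-KO) and 64.3 ± 5.61 CPM in pbrm-1(control) (SD, n = 5 each). Its log2 fold change was -0.040 (95% interval -0.17 to 0.093), and without control replicate 5 it was 0.012, with an adjusted p of 0.924 in edgeR's test. Without control replicate 4 it was -0.075. mom-5 (WBGene00003397; chromosome I, 9965574 to 9970037, plus strand) encodes the Frizzled that receives MOM-2 in the embryo. mom-5 averaged 47.3 ± 2.82 CPM in pbrm-1(TS-KO) and 46.9 ± 2.70 CPM in pbrm-1(control) (SD, n = 5 each), and its log2 fold change was 0.013 (95% interval -0.11 to 0.14). These were the narrowest intervals of the 10 genes, and the adjusted p in edgeR's test were 0.729 for mig-1 and 0.912 for mom-5. Of the exon bases of mom-5, 66 of 2483 are shared with tsp-7 on the opposite strand, which averaged 25.5 CPM.

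cam-1 (WBGene00000289; chromosome II, 9295915 to 9310304, minus strand) encodes the Ror receptor tyrosine kinase, which signals in response to CWN-2 and can also bind Wnts away from other receptors. cam-1 had 127, 109, 132, 135 and 115 CPM in pbrm-1(TS-KO) replicates 1, 4, 5, 6 and 7, against 133, 122, 159, 118 and 127 CPM in pbrm-1(control). In replicate 6 the pbrm-1(TS-KO) library was the higher, and in the other 4 pairs the lower. Its log2 fold change was -0.09 (SE 0.087, 95% interval -0.28 to 0.098, adjusted p = 0.554 in edgeR's test), and without control replicate 5 it was -0.016 (adjusted p = 0.926). Without control replicate 6 it was -0.13 (adjusted p = 0.444 in edgeR's test).

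**Figure D2:**
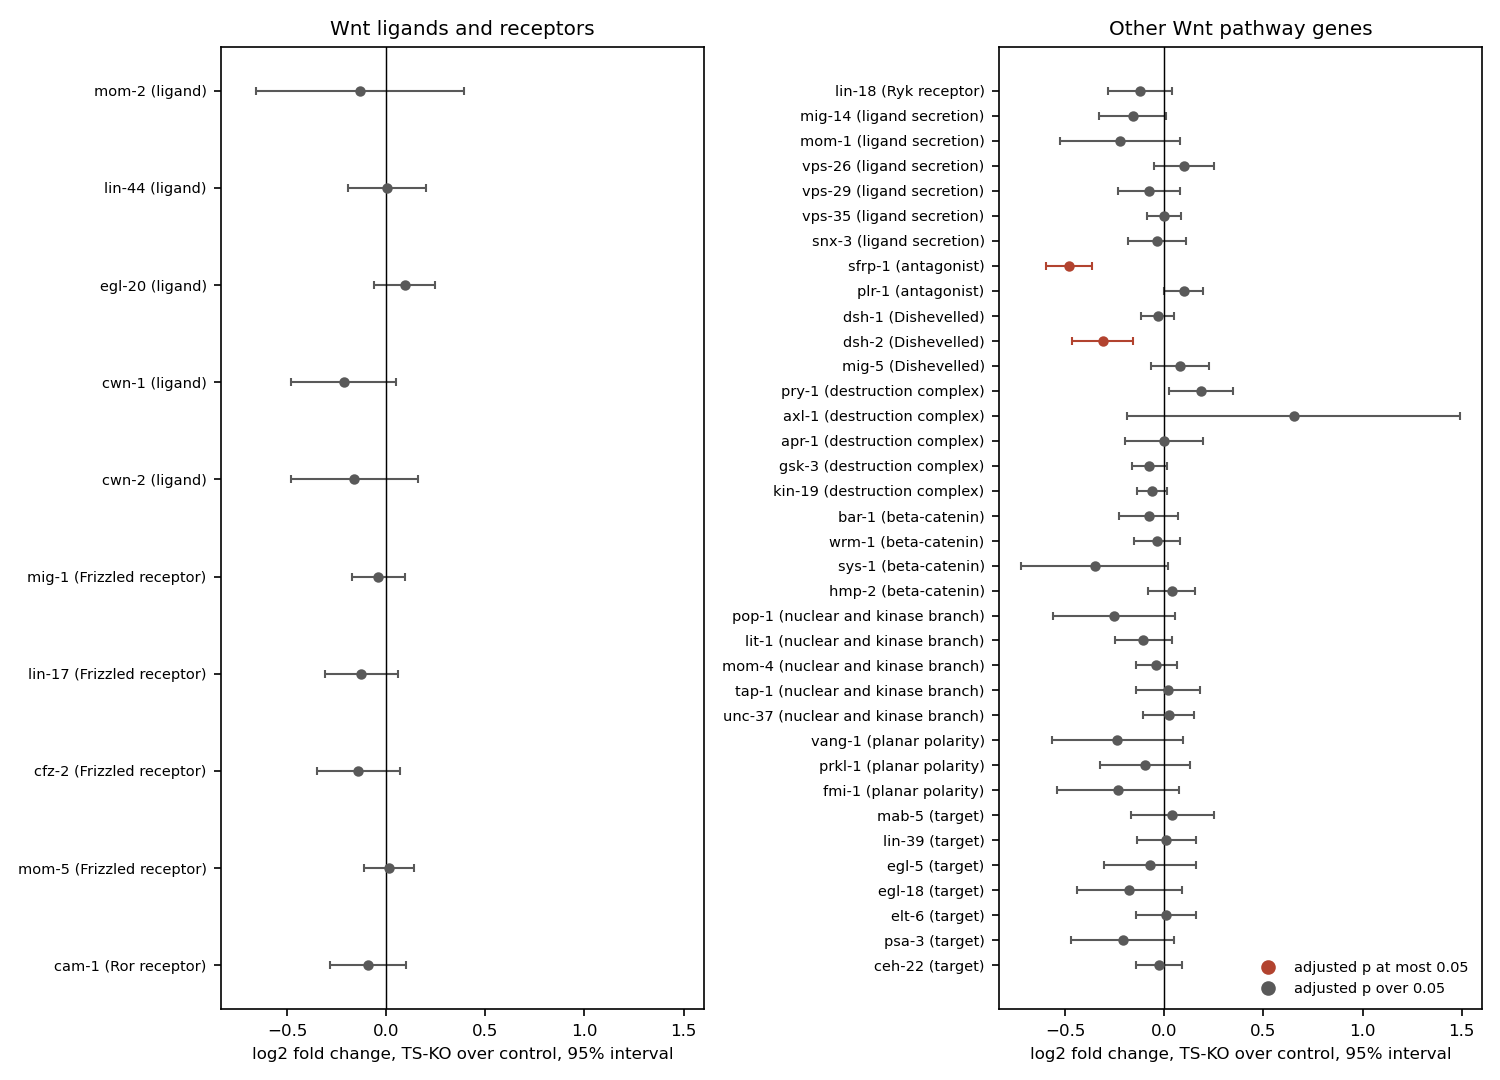
Log2 fold changes of pbrm-1(TS-KO) over pbrm-1(control) with 95% intervals from edgeR's quasi-likelihood fit (x axis), for the 10 ligand and receptor genes (left) and 36 other Wnt pathway genes (right), with red for an adjusted p of at most 0.05. All 10 intervals on the left include 0, and only sfrp-1 and dsh-2 on the right are red.

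Of 36 other genes of the pathway, listed by role, all were tested. In edgeR's test 2 were lower in pbrm-1(TS-KO) and none higher, against 4.28% of all genes tested called lower and 3.44% called higher. Their median log2 fold change was -0.051. The called genes were sfrp-1 and dsh-2. No gene passed among lin-18 (the Ryk receptor gene), the 6 genes for ligand secretion, the 5 for the destruction complex, the 4 beta-catenin genes, the 5 nuclear and kinase genes, the 3 planar polarity genes or the 7 listed targets. The targets mab-5 and lin-39, Hox genes that respond to Wnt signals in migrating neuroblasts and in the vulval precursors, had log2 fold changes of 0.041 and 0.010. At the other end of the targets, psa-3 and egl-18 had log2 fold changes of -0.21 and -0.18. These 4 genes were picked out after their values were seen. In 9 of the 36 genes pbrm-1(TS-KO) was lower in 5 of 5 pairs and in 2 it was higher in 5 of 5, so that 30.6% had 1 direction in every pair, against 26.8% of all genes tested.

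sfrp-1 (WBGene00022242; chromosome IV, 6396574 to 6402436, minus strand) was lower in pbrm-1(TS-KO). It encodes a secreted Frizzled-related protein, made in anterior body wall muscle, that limits the action of CWN-1 and CWN-2. sfrp-1 had 18.76, 16.94, 19.50, 18.97 and 17.61 CPM in pbrm-1(TS-KO) replicates 1, 4, 5, 6 and 7, against 25.44, 24.63, 26.14, 25.10 and 26.81 CPM in pbrm-1(control). The strains did not overlap. sfrp-1 had a log2 fold change of -0.48 (SE 0.053, adjusted p = 0.00039 in edgeR's test), 1.40-fold lower, and the pairs differed by between -0.61 and -0.40. It passed in all 15 fits that left out libraries and in all 6 other alternatives.

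dsh-2 (WBGene00001102; chromosome II, 5078233 to 5081174, minus strand) was also lower in pbrm-1(TS-KO). It encodes a Dishevelled protein of asymmetric divisions, those of the SGPs among them. dsh-2 had 12.33, 12.80, 11.72, 11.54 and 11.32 CPM in pbrm-1(TS-KO) replicates 1, 4, 5, 6 and 7, against 13.23, 14.05, 16.29, 15.49 and 14.98 CPM in pbrm-1(control). The strains did not overlap, with the closest libraries those of pbrm-1(TS-KO) replicate 4 and control replicate 1. Its log2 fold change was -0.31 (SE 0.070, adjusted p = 0.0218 in edgeR's test), 1.24-fold lower. The call was lost in 7 of the 15 fits that left out libraries, always with the same sign. Without pbrm-1(TS-KO) replicate 5 or 6 the adjusted p was 0.0585 and 0.0583, and without control replicate 5 or 6 it was 0.0509 and 0.0531. Without both libraries of replicate 5, 6 or 7 it was 0.108, 0.117 and 0.0827. The other Dishevelled genes, dsh-1 and mig-5, had log2 fold changes of -0.033 and 0.077 and did not pass.

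**Figure D3:**
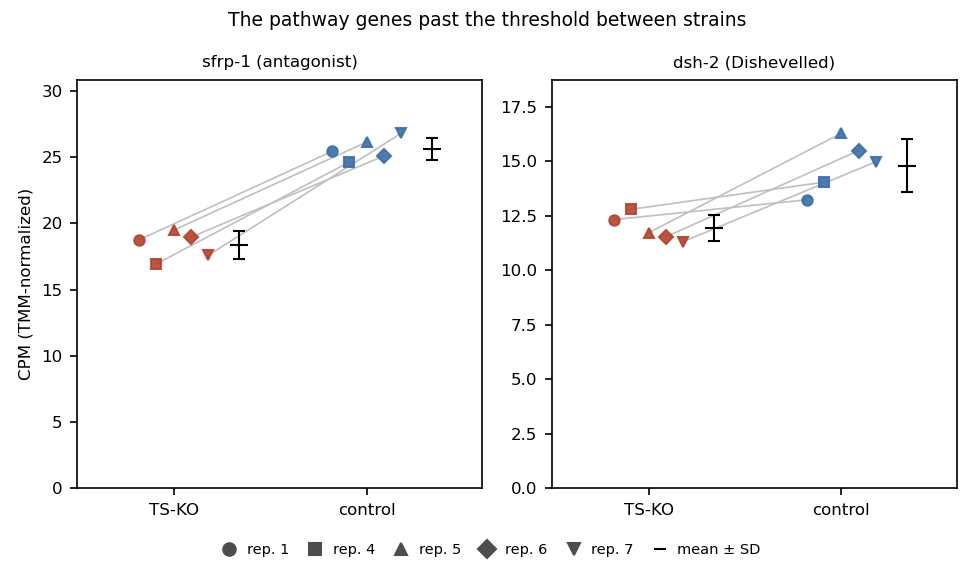
CPM after TMM normalization (y axis, from 0) of sfrp-1 and dsh-2 in pbrm-1(TS-KO) (left, red) and pbrm-1(control) (right, blue), with grey lines joining libraries of the same replicate number and bars for the mean ± SD of 5 libraries. Every line runs from a lower pbrm-1(TS-KO) value to a higher control value, with sfrp-1 at 16.9 to 19.5 CPM against 24.6 to 26.8 CPM.

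To compare levels between genes, CPM were divided by the length of annotated exons in kilobases. On this scale the receptors cam-1 and mig-1 led, cam-1 with 37.3 ± 3.44 CPM per kilobase in pbrm-1(TS-KO) and 39.7 ± 4.80 in pbrm-1(control) (SD, n = 5 each). mig-1 followed with 34.2 ± 1.28 CPM per kilobase in pbrm-1(TS-KO) and 35.2 ± 3.07 in pbrm-1(control) (SD, n = 5 each). The ranges of cam-1 and mig-1 over the 10 libraries overlapped, with cam-1 the higher in 9 of 10. No library of mig-1 overlapped with egl-20, the next gene. egl-20, the most abundant ligand, had 21.7 ± 1.47 CPM per kilobase in pbrm-1(TS-KO) and 20.3 ± 1.84 in pbrm-1(control) (SD, n = 5 each).

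Below egl-20 came cfz-2, mom-5, lin-17 and cwn-2, with means over the 10 libraries of 19.15, 18.97, 16.70 and 16.15 CPM per kilobase. Each of these overlapped with its neighbours in the order, and cfz-2 and mom-5 stood in the opposite order in pbrm-1(TS-KO). cwn-1, with a mean of 11.8 CPM per kilobase, was below cwn-2 in 10 of 10 libraries, although their ranges overlapped. lin-44 and mom-2 were the lowest, with means of 7.04 and 5.63 CPM per kilobase, and their ranges overlapped. lin-44 did not overlap with cwn-1. The level of cam-1 was 6.84 times that of mom-2. Among 16743 tested genes with a length, cam-1 and mig-1 stood at percentiles 83.7 and 81.8 and mom-2 at 42.0.

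The 5 ligands together had 60.3 ± 5.37 CPM per kilobase in pbrm-1(TS-KO) and 63.0 ± 6.69 in pbrm-1(control) (SD, n = 5 each). egl-20 made up between 34.3% and 38.2% of this sum in pbrm-1(TS-KO) and between 25.8% and 35.7% in pbrm-1(control). The share of cwn-1 was between 17.3% and 18.9% in pbrm-1(TS-KO) and between 18.6% and 22.1% in pbrm-1(control). For both ligands the ranges of the strains overlapped. The 4 Frizzled genes together had 87.5 ± 4.86 CPM per kilobase in pbrm-1(TS-KO) and 91.5 ± 7.84 in pbrm-1(control) (SD, n = 5 each), of which mig-1 held 39.1% on average in pbrm-1(TS-KO) and 38.4% in pbrm-1(control).

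**Figure D4:**
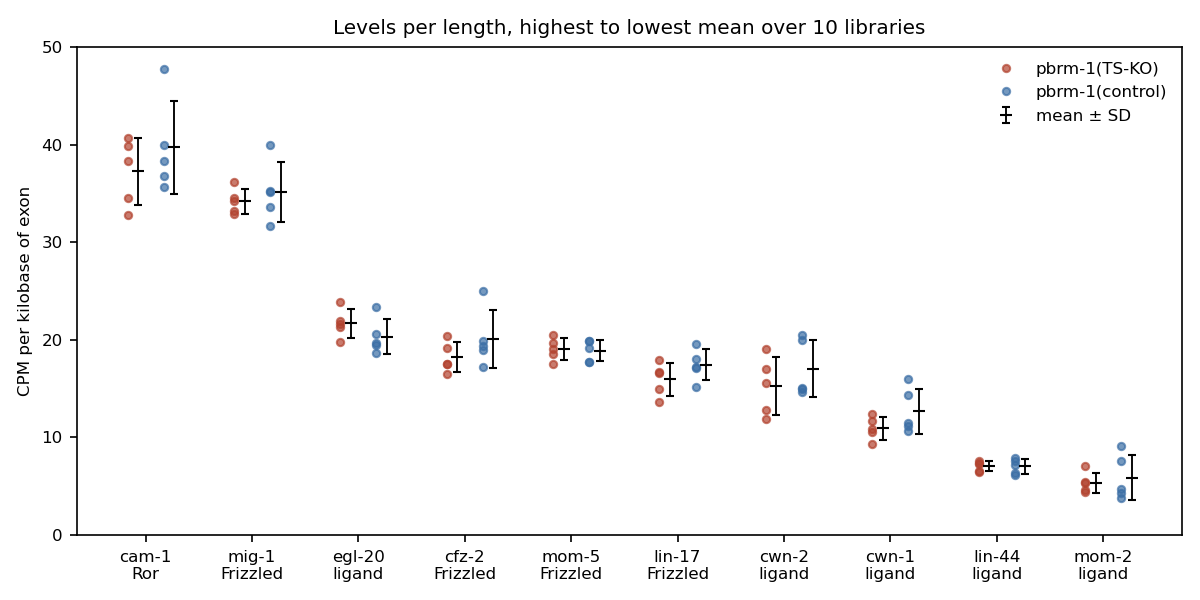
CPM per kilobase of exon (y axis, from 0) of each gene in 5 pbrm-1(TS-KO) libraries (left, red) and 5 pbrm-1(control) libraries (right, blue), with bars for the mean ± SD, ordered by the mean over the 10 libraries. cam-1 and mig-1 stand above the rest, and lin-44 and mom-2 are the lowest.

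The members were then read by replicate number, with a test of differences between replicate numbers averaged over both strains. Either strain alone can carry such a difference. In a model of strain plus replicate number, edgeR's quasi-likelihood F test called none of the 10 members and 0 of all 16817 genes, or 0%, at an adjusted p of at most 0.05. The members with an unadjusted p under 0.05 were cwn-2, cwn-1, mom-2 and lin-17, or 4 of 10, against 16.5% of all genes tested. DESeq2's likelihood ratio test called 895 of 15428 genes, or 5.8%, and among them cwn-2 (adjusted p = 0.0022) and mom-2 (adjusted p = 0.0108).

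The pattern of cwn-2 over the replicate numbers was the clearest. cwn-2 was highest in replicates 1 and 5 and lower in replicates 4 and 7 in both strains. The same order, with replicates 1 and 5 above replicates 4 and 7 in both strains, was seen for cwn-1, mig-1, lin-17, cfz-2 and cam-1. That is 6 of 10 members, against 10.6% of all genes tested. The reverse order was found in 12.6% of all genes and in no member. This order was chosen after the values were seen and was not tested. mom-2 did not follow it, with replicates 5 and 6 above the others in both strains. Control replicate 5 was the highest of the 10 libraries for 8 of the 10 members, against 14.9% of all genes tested, and for egl-20 it was the lowest.

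**Figure D5:**
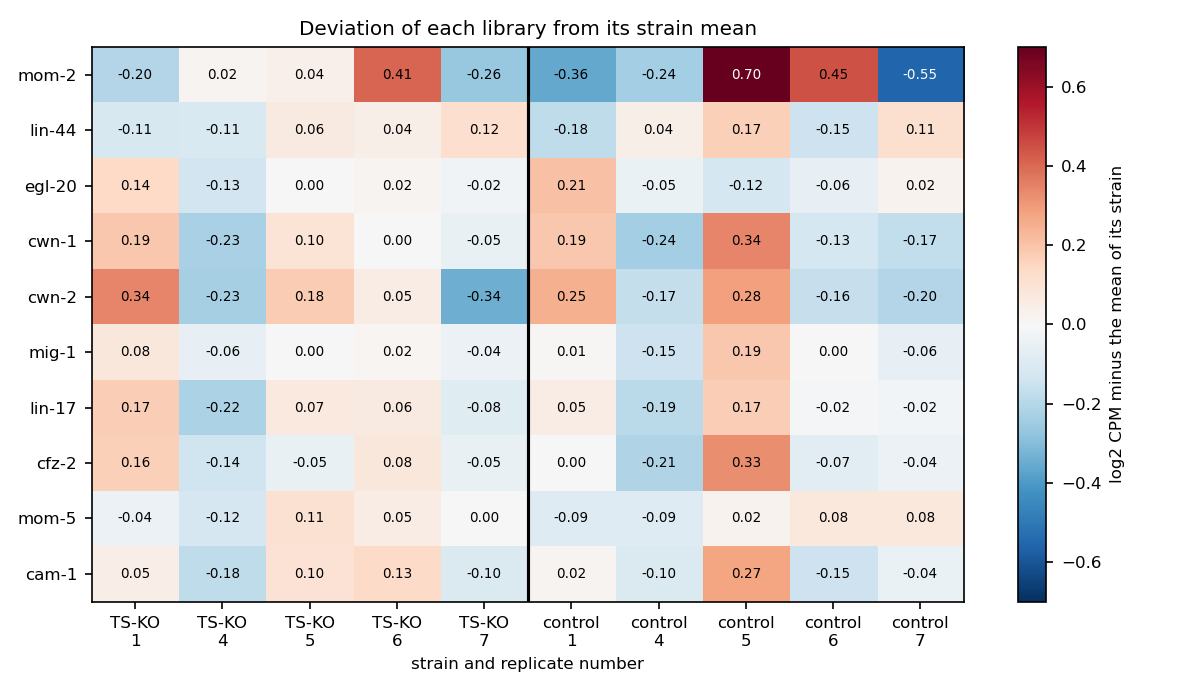
Log2 CPM of each gene (rows) minus the mean of its strain, by strain and replicate number (columns, pbrm-1(TS-KO) left of pbrm-1(control)), with red above and blue below the mean. cwn-1 and cwn-2 are red in replicates 1 and 5 and blue in replicates 4 and 7 of both strains, and mom-2 has its highest value in control replicate 5.

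After the strain means were removed, Pearson's r over the 10 libraries was above 0 for 41 of the 45 pairs of members, with a median of 0.43. Without control replicate 5, a setting chosen after the data were seen, it was above 0 for 32 pairs and below 0 for 13, with a median of 0.45. The highest were 0.95 for mig-1 with cfz-2, 0.89 for cwn-1 with lin-17 and 0.88 for cwn-1 with mig-1. Without control replicate 5 these were 0.88, 0.86 and 0.79. The r of egl-20 with cwn-1 was 0.36 over all libraries and 0.93 without control replicate 5, in which egl-20 was low and cwn-1 high. The r of mom-2 with mig-1 was 0.61 over all libraries and 0.21 without control replicate 5. Libraries of the same number were taken to share culture and handling, so these values describe the libraries and carry no test.

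Among 13745 other genes with at least 1 CPM on average, the levels of ace-3, ech-4 and sul-1 followed cwn-1 most closely over the 10 libraries, with Pearson's r of 0.974, 0.965 and 0.965. Without control replicate 5 these were 0.983, 0.933 and 0.946. Strain means were not removed here, unlike in the correlations between members, so the values of r are not on the same footing. ace-3 encodes an acetylcholinesterase. Their log2 fold changes were -0.15, -0.24 and -0.32, and none passed the threshold (adjusted p = 0.241, 0.240 and 0.355 in edgeR's test).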

How the data were processed

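RNA of whole L1 larvae was measured in 10 libraries. After trimming, the authors aligned reads with STAR 2.5.2b, counted unique reads within exons with featureCounts of Subread 1.5.2, and deposited raw counts per gene. Their methods name the assembly WBcel325, taken here as WBcel235. All 10 columns were used. Member and pathway genes were matched by name through the Ensembl annotation of WBcel235, in which 46581 of 46756 IDs were found.

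In R 4.3.3, counts were filtered with filterByExpr, normalized by TMM and tested with edgeR 4.0.16 (quasi-likelihood F test, no covariate, Benjamini-Hochberg adjustment over all genes, threshold 0.05). Standard errors and 95% intervals are approximate, derived from the fold change and the F statistic. Log values use a prior count of 2. The edgeR, DESeq2 and limma-voom fits of strain, and the edgeR fit of replicate number, were tried on simulated counts. The counts simulated for the strain fits held no shared effect of replicate number. They therefore cannot show how those fits behave with libraries paired by day. The series' design text and the methods say that strains were collected in parallel on different days, so same-numbered libraries were taken as pairs. Their deviations from the strain means correlated at 0.51, 0.28, 0.12, -0.051 and 0.35 for replicates 1, 4, 5, 6 and 7. All 20 pairs of libraries within a strain differed by more than counting noise.

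Alternatives were DESeq2 1.42.0, limma-voom (limma 3.58.1) with sample quality weights, RLE size factors, no filter, a minimum of 10 counts per library, the replicate block, and fits without each library or each replicate number. For levels, the longest transcript and library totals were tried. Named genes were all members, pbrm-1, pathway genes called in edgeR, and the 3 genes most like the member with the lowest p. The members and lists were chosen with earlier results of these data known.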

Additional observations from a re-analysis of the deposited data

How the results depend on the processing

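No alternative called a ligand or receptor gene between the strains. The count was 0 in each of the 6 other settings and in the 15 fits that left out a library or a replicate number. Over all genes, DESeq2 called 1955 and limma-voom with quality weights 2899, in place of 1299, and the fits that left out libraries called between 408 and 1204. Of the other Wnt pathway genes limma-voom called 3, the added gene being axl-1, and the fits that left out libraries between 1 and 2. With limma-voom the log2 fold changes of mom-2, cwn-2, mig-1 and cam-1 turned above 0, at 0.088, 0.0081, 0.0091 and 0.015. Over the fits that left out libraries the log2 fold change ran from -0.25 to 0.077 for mom-2, from -0.037 to 0.048 for lin-44, from -0.075 to 0.013 for mig-1 and from -0.0091 to 0.042 for mom-5. The cause was not tested. The directions of egl-20, cwn-1, lin-17, cfz-2, sfrp-1 and dsh-2 held in all 21 alternatives, but sizes moved. Over those 21 the log2 fold change ran from 0.056 to 0.15 for egl-20, from -0.27 to -0.079 for cwn-1, from -0.17 to -0.037 for lin-17, from -0.19 to -0.034 for cfz-2, from -0.50 to -0.44 for sfrp-1 and from -0.36 to -0.27 for dsh-2. It ran from -0.25 to 0.0081 for cwn-2 and from -0.16 to 0.015 for cam-1. With replicate number as a block, 1826 genes were called, no member among them and the same number of other pathway genes, 2. The replicate block changed no call named in the text. DESeq2's likelihood ratio test of replicate number called 2 members, in place of 0. The fits of replicate number without each number called 0 members. The order of levels was the same with the longest transcript and with library totals.

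Depth did not keep any member out of the test. The widest interval was that of mom-2, which had 256 to 583 counts in a library and a coefficient of variation of 39.2% between control libraries. lin-44, with 318 to 460 counts in a library, had a narrower interval. The cause of this difference was not tested.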

Other observations

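The axin-like gene axl-1, picked out after its values were seen, had the largest log2 fold change of the 36 other pathway genes, 0.65 (SE 0.38, edgeR adjusted p = 0.329). Axins scaffold the complex that degrades beta-catenin. axl-1 had 30.6, 9.18, 35.1, 32.9 and 10.3 CPM in pbrm-1(TS-KO) replicates 1, 4, 5, 6 and 7, against 24.1, 12.0, 12.8, 13.0 and 13.1 CPM in pbrm-1(control). In pbrm-1(TS-KO) replicates 1, 5 and 6 were high and replicates 4 and 7 low, and in pbrm-1(control) only replicate 1 was high. The pairs differed by between -0.38 and 1.46 on the log2 scale, with 3 of 5 higher in pbrm-1(TS-KO). limma-voom with sample quality weights gave 1.02 on the log2 scale (adjusted p = 0.0478). The other axin gene, pry-1, averaged 87.7 ± 9.99 CPM in pbrm-1(TS-KO) and 77.2 ± 3.42 CPM in pbrm-1(control) (SD, n = 5 each), 0.19 higher on the log2 scale with an edgeR adjusted p of 0.152.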
